A study of Mus musculus with 12 samples.

Results

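Mito-TEMPO pretreatment was compared with no pretreatment in cultured mouse hepatocytes that all received FAC. The comparison used the 3 libraries titled Mito-TEMPO + FAC treated 1 to 3 (MT+FAC) and the 3 titled FAC treated 1 to 3 (FAC), which are 6 of the 12 libraries of the series. All genes with enough counts were followed, 13535 of the 55487 gene identifiers listed. The cells are primary hepatocytes, which make up most of the liver's mass, and they were cultured until day 2 before any scavenger was given. MT+FAC cells received Mito-TEMPO on that day and then FAC, whereas FAC cells received FAC without pretreatment. The remaining groups, of 3 libraries each, were control cells, with neither pretreatment nor FAC, and cells given liproxstatin-1 as the pretreatment and then FAC (Lip-1+FAC). No group received Mito-TEMPO without FAC, so that the action of Mito-TEMPO alone was not measured. The labels give no strain, sex, age, dose or duration, do not spell out FAC, and do not say whether replicates are separate animals, cultures or RNA preparations. All p-values therefore measure the spread between these libraries, which may be technical.

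Mito-TEMPO is a superoxide-scavenging nitroxide linked to a lipophilic cation, which carries it into mitochondria along their membrane potential. Liproxstatin-1 traps lipid radicals in membranes and blocks ferroptosis, a form of cell death driven by iron-dependent lipid peroxidation. Hepatocytes store iron in ferritin, export it through ferroportin, and secrete hepcidin, the hormone that limits iron entry into blood. They also carry out ketogenesis, bile acid synthesis and drug metabolism, and they tend to lose such functions in culture.

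FAC libraries held 27588576, 52529278 and 25055659 gene-assigned reads and MT+FAC libraries 31683376, 31052073 and 22991598. FAC replicate 2, the deepest, is marked as combined in its file, and what was combined is not stated. Replicates correlated across genes with Pearson coefficients of 0.986 to 0.9905 in FAC and 0.9904 to 0.9913 in MT+FAC. Some read classes differed between the groups without overlap. Multimapping reads, which are not counted for genes, made up 5.85% to 6.23% of listed reads in FAC and 4.88% to 5.05% in MT+FAC, unmapped reads 7.55% to 10.1% and 6.42% to 6.59%, and reads outside genes 2.92% to 3.14% and 2.33% to 2.45%. Their part in the results was not tested.

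Mito-TEMPO pretreatment was followed by a broad but mostly moderate difference in the transcriptome. Among the 13535 genes tested, 5541 were called at an edgeR adjusted p under 0.05, 40.9% of those tested. Of these, 2875 (21.2%) were higher in MT+FAC and 2666 (19.7%) lower. A gene was counted as changed at least 2-fold where its absolute log2 fold change reached 1, and 1007 called genes (7.44%) did so, 445 (3.29%) higher and 562 (4.15%) lower. The median log2 fold change was 0.47 among genes called higher and -0.51 among genes called lower, and it was -0.001 over all genes tested. Levels are given as CPM, read counts scaled to the library's total over the genes tested with TMM factors, which do not compare genes of different length. With a mean CPM of at least 5 required, 338 of 9138 genes tested were called with at least a 2-fold change. In bulk RNA, fewer cells expressing a gene and less RNA per cell cannot be told apart.

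**Figure D1:**
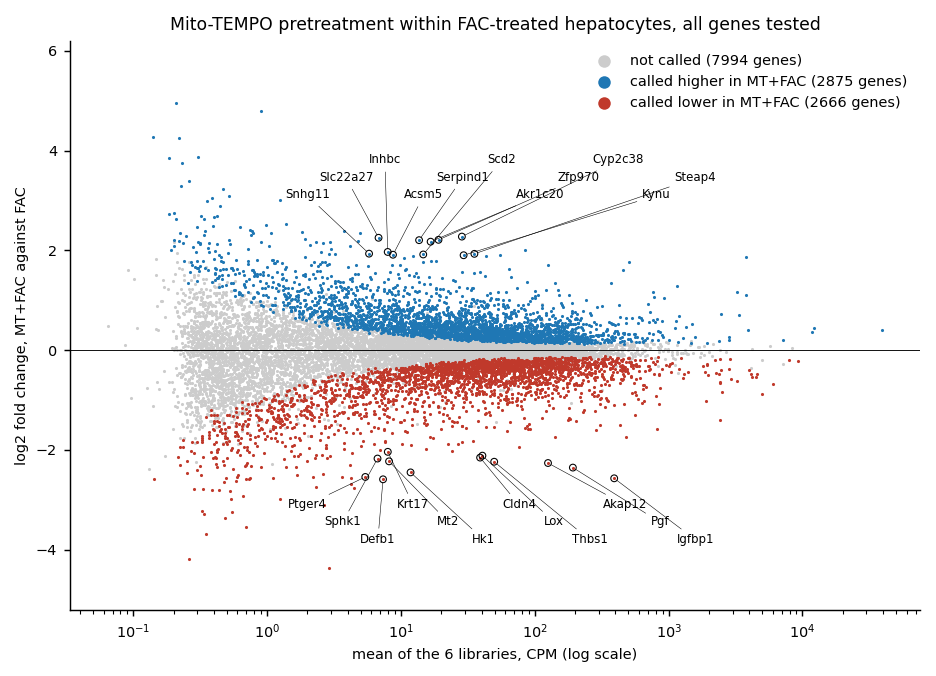
Log2 fold change of MT+FAC against FAC (vertical axis) for each gene tested, by its mean level over the 6 libraries in CPM on a log scale. Blue points mark the 2875 genes called higher, red points the 2666 called lower, grey points genes not called, and circles with names the largest rises and falls described in the text.

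Igfbp1, Pgf and Hk1 were among the largest falls with Mito-TEMPO. The falls described first are the 12 largest among protein-coding genes that were called, averaged at least 5 CPM over the 6 libraries and did not overlap between the groups, as 52.9% of all genes tested did not. That the groups are apart in these genes, and in the rises chosen likewise, was therefore fixed by the choice and is no result. Igfbp1, a secreted insulin-like growth factor binding protein made by hepatocytes (ENSMUSG00000020429, chromosome 11, 7197782 to 7202546 in GRCm38), had 682, 701 and 629 CPM in FAC and 93.7, 118 and 128 CPM in MT+FAC. That is a log2 change of -2.57 (SE 0.170, edgeR adjusted p = 1.75e-06), or 0.169 of the FAC level. Its control libraries stood at 184, 122 and 189 CPM, so that 2 of the 3 MT+FAC libraries lay below every control library. Pgf, placental growth factor of the VEGF family (ENSMUSG00000004791, chromosome 12, 85166635 to 85177790), had 308, 291 and 367 CPM in FAC and 51.4, 78.7 and 58.5 CPM in MT+FAC, a log2 change of -2.35 (SE 0.180, edgeR adjusted p = 4.80e-06). Hk1, the hexokinase that phosphorylates glucose in most tissues but is normally low in hepatocytes (ENSMUSG00000037012, chromosome 10, 62268855 to 62379908), had 15.5, 17.1 and 27.2 CPM in FAC and 2.69, 3.96 and 4.32 CPM in MT+FAC, a log2 change of -2.45 (SE 0.228, edgeR adjusted p = 9.79e-07). The highest FAC value of Hk1 and of Pgf came from FAC replicate 3.

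Defb1, a secreted antimicrobial beta-defensin, had 13.3, 10.5 and 14.1 CPM in FAC and 2.31, 2.24 and 1.64 CPM in MT+FAC, a log2 change of -2.59 (SE 0.191, edgeR adjusted p = 2.89e-08). Akap12, a scaffold protein for protein kinases, had 200.5, 199.9 and 222 CPM in FAC and 32.6, 52.1 and 45.1 CPM in MT+FAC, a log2 change of -2.26 (SE 0.216, edgeR adjusted p = 3.04e-05). Thbs1, the matrix protein thrombospondin 1, had 72.2, 70.6 and 103 CPM in FAC and 10.7, 23.1 and 18.4 CPM in MT+FAC, a log2 change of -2.24 (SE 0.286, edgeR adjusted p = 2.25e-04). In Thbs1 the MT+FAC libraries lay above the Lip-1+FAC libraries, which held 5.79, 9.33 and 7.61 CPM. Lox, which cross-links collagen, changed by -2.12 (SE 0.163). Cldn4, a tight junction protein, changed by -2.15 (SE 0.202), Krt17, a keratin, by -2.04 (SE 0.292), and Sphk1, which makes sphingosine 1-phosphate, by -2.17 (SE 0.206). Ptger4, a prostaglandin E2 receptor, changed by -2.54 (SE 0.281), but 16.5% of its exonic bases overlap other genes and its change was -0.95 when the counts of both strands were summed. Mt2, the metal-binding protein metallothionein 2, changed by -2.23 (SE 0.491). Another gene overlaps 73.5% of the exonic bases of Mt2, and reads of overlapping genes cannot be told apart in unstranded libraries.

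Cyp2c38, Steap4 and Kynu were among the largest rises by the same rule. Cyp2c38, a cytochrome P450 (ENSMUSG00000032808, chromosome 19, 39389556 to 39463075), had 12.3, 10.7 and 6.10 CPM in FAC and 58.7, 37.2 and 46.1 CPM in MT+FAC, a log2 change of 2.27 (SE 0.240, edgeR adjusted p = 4.13e-05), a 4.84-fold level. Steap4, a metalloreductase that reduces iron and copper (ENSMUSG00000012428, chromosome 5, 7960457 to 7982213), had 14.9, 14.02 and 15.3 CPM in FAC and 62.9, 47.4 and 57.6 CPM in MT+FAC, a log2 change of 1.93 (SE 0.108, edgeR adjusted p = 2.54e-09). Kynu, the kynureninase of tryptophan breakdown (ENSMUSG00000026866, chromosome 2, 43555329 to 43682715), had 10.7, 12.1 and 14.4 CPM in FAC and 47.0, 43.5 and 48.4 CPM in MT+FAC, a log2 change of 1.90 (SE 0.127, edgeR adjusted p = 2.47e-08).

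Serpind1, the thrombin inhibitor heparin cofactor II, had 4.82, 5.52 and 4.12 CPM in FAC and 26.7, 18.9 and 21.9 CPM in MT+FAC, a log2 change of 2.20 (SE 0.146, edgeR adjusted p = 9.40e-09). Akr1c20, an aldo-keto reductase, had 6.10, 6.09 and 5.93 CPM in FAC and 31.3, 25.2 and 25.2 CPM in MT+FAC, a log2 change of 2.17 (SE 0.141, edgeR adjusted p = 9.40e-09). Scd2, a stearoyl-CoA desaturase, had 5.63, 6.47 and 6.26 CPM in FAC and 25.2, 21.1 and 23.3 CPM in MT+FAC, a log2 change of 1.92 (SE 0.106, edgeR adjusted p = 2.07e-09). Inhbc, an inhibin beta subunit made by liver, changed by 1.97 (SE 0.164), Acsm5, a medium-chain acyl-CoA synthetase, by 1.91 (SE 0.195), and the gene Snhg11 by 1.93 (SE 0.238). Slc22a27, an organic anion transporter, changed by 2.25 (SE 0.186) and Zfp970, a zinc finger gene, by 2.21 (SE 0.160). The counts of these last genes are uncertain, since Slc22a29 matches 97.0% of the Slc22a27 transcript at 96.8% identity and Zfp965 matches 57.2% of the Zfp970 transcript at 96.4%.

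**Figure D2:**
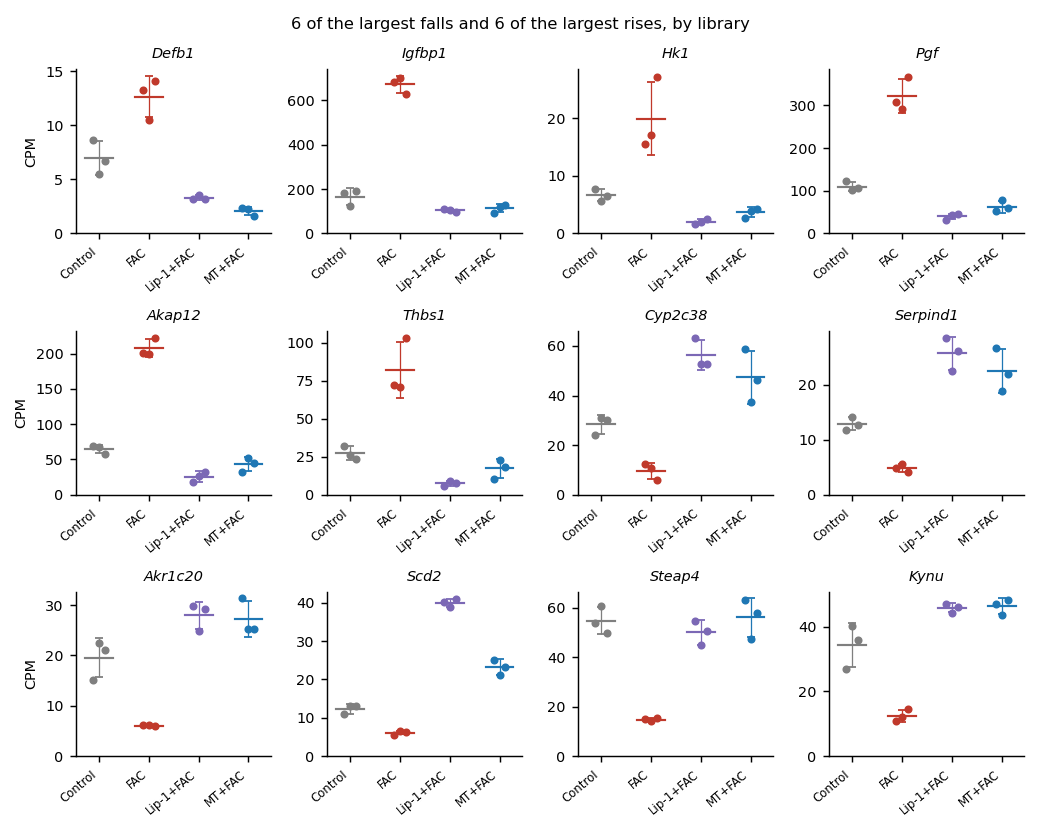
Level in CPM (vertical axes, from 0) of 6 of the largest falls (Defb1 to Thbs1) and 6 of the largest rises (Cyp2c38 to Kynu) in each library of the 4 groups. Points are libraries, horizontal bars means and whiskers the SD of 3 libraries. MT+FAC and FAC libraries do not overlap in any panel because the genes were chosen so.

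Differences in the most abundant transcripts were smaller. Trf, the plasma iron carrier transferrin, had 34530.0, 33966 and 32199 CPM in FAC and 44757, 44049 and 45039 CPM in MT+FAC, a log2 change of 0.41 (SE 0.0611, edgeR adjusted p = 4.34e-05), although 63.5% of its exonic bases overlap a read-through gene. Hpx, the heme scavenger hemopexin, had 10930.0, 10479 and 9669 CPM in FAC and 14853, 13776 and 13744 CPM in MT+FAC, a log2 change of 0.45 (SE 0.0616, edgeR adjusted p = 2.03e-05). Gc, the vitamin D binding protein, rose by 0.36 (SE 0.0553) and Selenop, the selenium carrier of plasma, by 0.20 (SE 0.0585), the latter without a call when offsets for GC content and length were used (0.13). C3, the central complement protein, changed by 0.40 (SE 0.128, edgeR adjusted p = 0.0261), a call lost without FAC replicate 2 or 3 or without MT+FAC replicate 1 or 2. Among abundant transcripts that were lower, Ldha, the lactate dehydrogenase subunit of glycolytic cells, had 7315, 6957 and 7888 CPM in FAC and 4336, 5052 and 4534 CPM in MT+FAC, a log2 change of -0.67 (SE 0.0758, edgeR adjusted p = 2.53e-06). An annotated copy matches 55.1% of the Ldha transcript at 95.6% identity. Fth1, the ferritin heavy chain, is described with the iron genes. Alb, serum albumin, changed by -0.21 (SE 0.0639, edgeR adjusted p = 0.0130) and Mup3, a major urinary protein, by -0.21 (SE 0.0768, edgeR adjusted p = 0.0399). The call of Alb was lost without FAC replicate 1 and without MT+FAC replicate 1 or 3, and that of Mup3 without any 1 of the 6 libraries.

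Genes that the hypoxia-inducible factors switch on were lower with Mito-TEMPO almost throughout. These factors are stabilised when prolyl hydroxylases lack oxygen or iron, and they turn on glycolysis and growth factor genes. Of 26 members tested of 28 listed, 24 were lower, none was higher, and the median log2 fold change was -1.003. Adm, the vasodilator peptide adrenomedullin, had 395, 419 and 469 CPM in FAC and 121, 169 and 134 CPM in MT+FAC, a log2 change of -1.60 (SE 0.127, edgeR adjusted p = 1.93e-06). Egln3, an oxygen-sensing prolyl hydroxylase that these factors themselves induce, had 117, 128 and 136 CPM in FAC and 35.0, 53.4 and 41.3 CPM in MT+FAC, a log2 change of -1.55 (SE 0.156, edgeR adjusted p = 1.42e-05). Both genes were at more than 2 times the MT+FAC level in every FAC library. Ddit4, an inhibitor of mTORC1, changed by -1.29 (SE 0.137). Hilpda, a lipid droplet protein, changed by -1.202 (SE 0.0909), and Pdk1, which restrains pyruvate entry into mitochondria, by -0.96 (SE 0.0847). Bnip3, a mitophagy receptor, changed by -1.09 (SE 0.128), but annotated copies match 48.9% of its transcript. Epo and Egln1 were the 2 members not called, and they are named after their values were seen.

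Promoter windows of RefSeq (GRCm38.p6, 250 bases before to 50 after the start) were available for 9869 of the genes tested and were searched on both strands, with the first listed window of each gene. The hypoxia response element core, ACGTG, which also lies within the E-box CACGTG, was in 11 of the 20 windows of the hypoxia-linked genes called lower. That is 55%, against 26.2% of all 9869 windows. A match describes letters, not a bound site. The lists were chosen by known function, and members that were not called were not counted apart. These shares, here and below, therefore describe the lists and not the difference with Mito-TEMPO. The window of Egln3, the member with the largest change among those holding the core, is shown because that gene leads the group, with the core in capitals (chromosome 12, 54203825 to 54204124, minus strand, written 5′ to 3′ along the gene).
Egln3: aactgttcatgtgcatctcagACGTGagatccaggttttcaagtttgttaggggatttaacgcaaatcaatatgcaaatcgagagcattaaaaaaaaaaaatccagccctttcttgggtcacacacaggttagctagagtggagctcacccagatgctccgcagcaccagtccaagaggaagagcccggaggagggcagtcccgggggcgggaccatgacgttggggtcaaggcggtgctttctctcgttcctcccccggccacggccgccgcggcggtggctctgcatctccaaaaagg

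Most glycolysis genes were lower in MT+FAC, whereas a smaller number were higher. Of 27 glycolysis and glucose uptake genes tested, 17 were lower and 5 higher, with a median of -0.54. Hk2, a hexokinase, had 7.75, 9.98 and 10.5 CPM in FAC and 2.03, 4.76 and 2.85 CPM in MT+FAC, a log2 change of -1.54 (SE 0.246, edgeR adjusted p = 1.06e-04). Slc2a1, the glucose transporter GLUT1, had 310.3, 324 and 336 CPM in FAC and 119, 159 and 133 CPM in MT+FAC, a log2 change of -1.24 (SE 0.117, edgeR adjusted p = 3.96e-06). Slc16a3, the lactate exporter MCT4, had 112, 130.4 and 146.5 CPM in FAC and 42.9, 50.6 and 42.4 CPM in MT+FAC, a log2 change of -1.51 (SE 0.178, edgeR adjusted p = 7.41e-05). All 3 genes, which act on glucose entry, its first phosphorylation and lactate exit, were lower in every MT+FAC library than in any FAC library. So were 25.7% of all genes tested, and 96.6% of genes called lower did not overlap, so that this adds little to the calls. Gapdh, the glyceraldehyde 3-phosphate dehydrogenase, changed by -0.54 (SE 0.0676). In the other direction, Pfkfb1, the liver form of the enzyme that sets fructose 2,6-bisphosphate, had 5.52, 3.52 and 6.10 CPM in FAC and 6.84, 9.14 and 9.89 CPM in MT+FAC, a log2 change of 0.80 (SE 0.202, edgeR adjusted p = 0.00480).

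**Figure D3:**
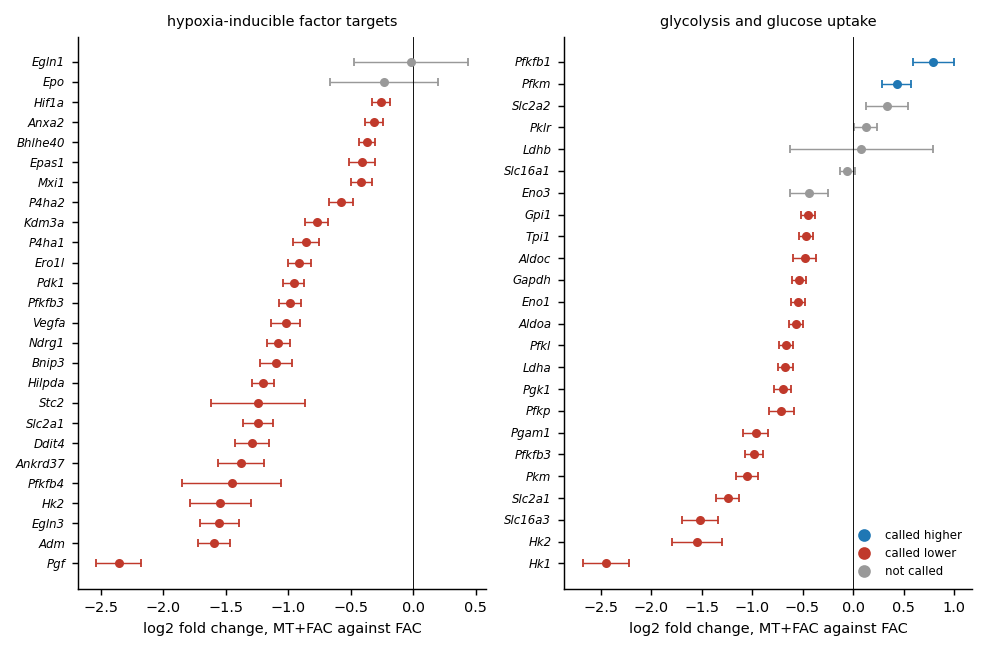
Log2 fold change of MT+FAC against FAC (horizontal axes) for tested members of the hypoxia-inducible factor list (left) and the glycolysis and glucose uptake list (right, some members not reported here). Points are edgeR estimates and bars 1 SE, and 24 of 26 hypoxia-linked members lie left of 0 and are called.

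Genes of glucose output moved both ways. Among 20 gluconeogenesis and glucose output genes, 6 were higher and 7 lower, beside 21.2% and 19.7% of all genes. Gcgr, the glucagon receptor, had 48.7, 46.8 and 51.7 CPM in FAC and 152.4, 99.8 and 126 CPM in MT+FAC, a log2 change of 1.36 (SE 0.167, edgeR adjusted p = 1.01e-04). Pck1, the cytosolic PEP carboxykinase that commits carbon to glucose, had 11.7, 8.41 and 6.78 CPM in FAC and 5.001, 4.12 and 3.93 CPM in MT+FAC, a log2 change of -1.03 (SE 0.188, edgeR adjusted p = 3.24e-04). Its control libraries stood higher than either group, at 18.0, 25.2 and 18.7 CPM. Pdk4, a pyruvate dehydrogenase kinase, changed by -1.16 (SE 0.154), and Pdk3, another, by -1.27 (SE 0.261). Of 23 tricarboxylic acid cycle and pyruvate entry genes, 5 were higher and 6 lower, shares near the 21.2% and 19.7% of all genes, with 3 higher without FAC replicate 2 or MT+FAC replicate 1. Ogdh, of the oxoglutarate dehydrogenase complex, changed by 0.51 (SE 0.0569) and Idh2, the mitochondrial NADP isocitrate dehydrogenase, by 0.54 (SE 0.0596). Mdh2, the malate dehydrogenase of the cycle, was lower, at -0.49 (SE 0.0589).

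Immediate early genes and feedback genes of growth factor signalling were lower. Immediate early genes encode transcription factors that respond to mitogens and stress within minutes, and the MAPK cascade induces its own inhibitors. Of 26 AP-1 and immediate early genes tested, 22 were lower and 1 higher, with a median of -0.78. Fos, an AP-1 subunit, had 44.0, 44.1 and 45.3 CPM in FAC and 11.1, 13.1 and 13.2 CPM in MT+FAC, a log2 change of -1.84 (SE 0.0938, edgeR adjusted p = 1.23e-09). Egr1, a zinc finger factor of the early response, had 90.8, 102 and 86.8 CPM in FAC and 23.8, 34.5 and 33.4 CPM in MT+FAC, a log2 change of -1.61 (SE 0.121, edgeR adjusted p = 1.50e-07). Its control libraries held only 18.8, 19.8 and 20.5 CPM. Fosl1, another AP-1 subunit, changed by -2.57 (SE 0.299), yet 57.2% of its exonic bases overlap a neighbouring gene. Klf4 changed by -1.97 (SE 0.284). The 1 member called higher was Nr4a2, at a mean of 0.810 CPM in FAC and 1.41 CPM in MT+FAC, a call lost in 8 of 15 alternatives, among them without FAC replicate 1 or 3 and without any 1 MT+FAC library. The cyclic AMP response element, TGACGTCA, was in 2 of 18 windows of the members called lower, 11.1%, against 3.28% of all windows.

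Among 26 EGFR ligand and MAPK feedback genes, 17 were lower and none was higher (1 without FAC replicate 1), with a median of -0.65. Dusp4, a phosphatase that inactivates MAP kinases, had 41.9, 43.6 and 30.9 CPM in FAC and 7.47, 11.4 and 9.93 CPM in MT+FAC, a log2 change of -2.02 (SE 0.169, edgeR adjusted p = 3.18e-07). Dusp5, a phosphatase for ERK, had 23.2, 24.6 and 26.1 CPM in FAC and 5.31, 6.87 and 6.61 CPM in MT+FAC, a log2 change of -1.98 (SE 0.146, edgeR adjusted p = 2.95e-08). Hbegf, a ligand of the EGF receptor, had 6.87, 8.35 and 8.44 CPM in FAC and 1.5002, 2.65 and 2.12 CPM in MT+FAC, a log2 change of -1.92 (SE 0.215, edgeR adjusted p = 2.19e-06). Errfi1, an inhibitor of that receptor with the highest level of the list, changed by -0.32 (SE 0.0617).

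Of 23 NF-kB feedback and chemokine genes, 9 were lower and 3 higher, with 5 lower without FAC replicate 2 or without MT+FAC replicate 1 or 3. The rest of the list was not called. Cxcl2, which attracts neutrophils, had 6.72, 6.61 and 3.23 CPM in FAC and 0.250, 0.383 and 0.130 CPM in MT+FAC, a log2 change of -4.38 (SE 0.382, edgeR adjusted p = 1.74e-07), the largest fall on the log2 scale among all called genes. Cxcl1, its close relative, had 19.8, 20.2 and 13.4 CPM in FAC and 4.59, 6.77 and 7.64 CPM in MT+FAC, a log2 change of -1.502 (SE 0.182, edgeR adjusted p = 6.12e-06). Cxcl10, which attracts T cells, had 13.3, 11.97 and 10.6 CPM in FAC and 3.50, 3.58 and 2.94 CPM in MT+FAC, a log2 change of -1.84 (SE 0.190, edgeR adjusted p = 9.80e-07). The control libraries of Cxcl2 held 0.299, 0.150 and 0.276 CPM, all within the range of MT+FAC. Csf1, a growth factor of macrophages, was higher instead, by 0.84 (SE 0.114). Ccl2, which attracts monocytes, changed by 0.63 (SE 0.210, edgeR adjusted p = 0.0296), a call lost without FAC replicate 1 or 3 and without MT+FAC replicate 3, where the change was 0.37.

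Genes that rise as hepatocytes lose their identity and spread in culture were mostly lower in MT+FAC. Of 41 dedifferentiation and cytoskeleton genes, 23 were lower and 4 higher (2 without FAC replicate 1 or MT+FAC replicate 2 or 3), with a median of -0.47. Sox9, a transcription factor of bile duct and progenitor cells, had 49.2, 53.6 and 57.5 CPM in FAC and 15.0, 13.6 and 16.6 CPM in MT+FAC, a log2 change of -1.83 (SE 0.113, edgeR adjusted p = 4.09e-09). Krt19, a bile duct keratin, had 6.69, 8.83 and 14.4 CPM in FAC and 2.31, 2.94 and 2.85 CPM in MT+FAC, a log2 change of -1.88 (SE 0.238, edgeR adjusted p = 1.01e-05). Sox9 and Krt19 are also markers of bile duct cells, of which 4 of 6 tested were lower: Krt7 changed by -2.01 (SE 0.469) and Epcam by -2.57 (SE 0.598), both under 2 CPM in every FAC and MT+FAC library. Epcam was named after its values were seen. The part of bile duct cells was not tested. Spp1, the secreted protein osteopontin, went the other way with 40.4, 41.4 and 49.0 CPM in FAC and 96.4, 86.9 and 125 CPM in MT+FAC, a log2 change of 1.24 (SE 0.145, edgeR adjusted p = 3.53e-05). Lgals1, galectin 1, changed by 1.26 (SE 0.216). In Spp1 and Lgals1 the MT+FAC libraries also exceeded control, with log2 fold changes of 1.33 (SE 0.146) and 1.03 (SE 0.216).

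Of 37 matrix and integrin genes, 14 were lower, 1 was higher (2 without FAC replicate 3) and 22 were not called. In either direction 40.5% were called against 40.9% of all genes, but of all genes 19.7% were lower and 21.2% higher. The list's median was -0.27. Ccn2, a matricellular protein known as CTGF, had 761, 749 and 710.2 CPM in FAC and 168, 263 and 236 CPM in MT+FAC, a log2 change of -1.74 (SE 0.132, edgeR adjusted p = 1.70e-06). Fn1, fibronectin and the most abundant of the list, was not called, at -0.21 (SE 0.166), except in a fit of the compared libraries alone. Of 16 TGF-beta targets, 9 were lower and none was higher. Tgfb1, the cytokine itself, was low in level with 1.97, 2.30 and 1.45 CPM in FAC and 0.781, 0.607 and 0.648 CPM in MT+FAC, a log2 change of -1.49 (SE 0.312, edgeR adjusted p = 9.76e-04). Among 18 YAP targets, 4 were lower and 2 higher, the latter 4 without MT+FAC replicate 1, and 33.3% were called.

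Among secreted binding proteins of insulin-like growth factors, Igfbp1 was joined by Igfbp2, with 119, 149.1 and 147.5 CPM in FAC and 42.7, 52.6 and 44.5 CPM in MT+FAC, a log2 change of -1.57 (SE 0.09999, edgeR adjusted p = 1.72e-08), and by Igfbp3, at -1.83 (SE 0.195). Igfbp4 rose instead, by 0.94 (SE 0.0832). Irs2, which passes on the insulin signal, changed by -1.07 (SE 0.104). Of 38 cell cycle genes, 11 were higher and 8 lower, beside 21.2% and 19.7% of all genes. Without MT+FAC replicate 1 or 3 the higher count was 7 or 6. Mcm6, of the replicative helicase, had 113, 110.3 and 113 CPM in FAC and 47.2, 52.3 and 48.4 CPM in MT+FAC, a log2 change of -1.18 (SE 0.0783, edgeR adjusted p = 9.40e-09). Cdkn1a, the cyclin-dependent kinase inhibitor p21, changed by -0.81 (SE 0.0941). Ccnb1, cyclin B1, was higher at a very low level, with 0.0365, 0.230 and 0.444 CPM in FAC and 1.5002, 0.639 and 1.64 CPM in MT+FAC, and annotated copies match 52.0% of its transcript.

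The mRNAs made inside mitochondria were lower with Mito-TEMPO than in FAC cells. The mitochondrial genome encodes 13 mRNAs for subunits of the respiratory chain and the ATP synthase. Together they made up 1.07%, 1.03% and 1.09% of gene-assigned counts in FAC and 0.525%, 0.592% and 0.589% in MT+FAC. The difference of -0.496 percentage points has an exact two-sided permutation p of 0.1, the smallest that 3 against 3 libraries allow. Control libraries held 1.06%, 0.856% and 0.986% and Lip-1+FAC libraries 0.632%, 0.694% and 0.641%. All 10 mRNAs tested were called lower, with a median of -1.12, whereas mt-Nd3, mt-Nd4l and mt-Atp8 had too few counts. The median was -0.90 over the 7 with a mean CPM of at least 5. With offsets for GC content and length it was -0.95, and 9 were called. Against control 9 of the 10 were called lower, and mt-Atp6 was not called. FAC against control, which called 36.6% of all genes tested, called 1 of these 10, mt-Co1, higher by 0.21 (SE 0.0783, edgeR adjusted p = 0.0398).

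The size of the difference varied among the transcripts. mt-Nd1, a complex I subunit (ENSMUSG00000064341, chromosome M, 2751 to 3707), had 1212, 1126 and 1342 CPM in FAC and 383, 386 and 458 CPM in MT+FAC, a log2 change of -1.59 (SE 0.121, edgeR adjusted p = 1.04e-06). mt-Cytb, of complex III, had 867, 848 and 932 CPM in FAC and 405, 425 and 468 CPM in MT+FAC, a log2 change of -1.03 (SE 0.0773, edgeR adjusted p = 4.92e-08). mt-Co1, the catalytic subunit of complex IV and the most abundant of these mRNAs, had 6634, 6419 and 6460.0 CPM in FAC and 3239, 3802 and 3546 CPM in MT+FAC, a log2 change of -0.88 (SE 0.0789, edgeR adjusted p = 2.69e-07). mt-Nd5, also of complex I, changed least, with 861, 849 and 981 CPM in FAC and 586, 679 and 666 CPM in MT+FAC, a log2 change of -0.48 (SE 0.0725, edgeR adjusted p = 5.25e-05). mt-Nd2 changed by -1.22 (SE 0.168) and mt-Nd4 by -0.85 (SE 0.0772). mt-Nd6, the mRNA on the light strand of the mitochondrial genome, changed by -0.81 (SE 0.210), a call lost with offsets for GC content and length (-0.34). mt-Atp6, mt-Co2 and mt-Co3 were between -2.57 and -2.12 but had at most 4.83 CPM on average in FAC. Nuclear copies match nearly the whole of these transcripts, and reads with several mapping places were left uncounted, so that their values are uncertain. A copy also matches the whole of mt-Co1 at 97.6% identity, and copies match 63.6% of mt-Nd4, 52.3% of mt-Nd5 and 49.1% of mt-Nd2 at 95.2% identity or more. Both mitochondrial ribosomal RNAs were not called, though the larger, mt-Rnr2, was called lower in a fit of the compared libraries alone (edgeR adjusted p = 0.00989, against 0.00989 to 0.402 over its alternatives). It had 1238 ± 145.5 CPM in FAC against 1010.4 ± 57.7 CPM in MT+FAC and a change of -0.29 (SE 0.172).

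**Figure D4:**
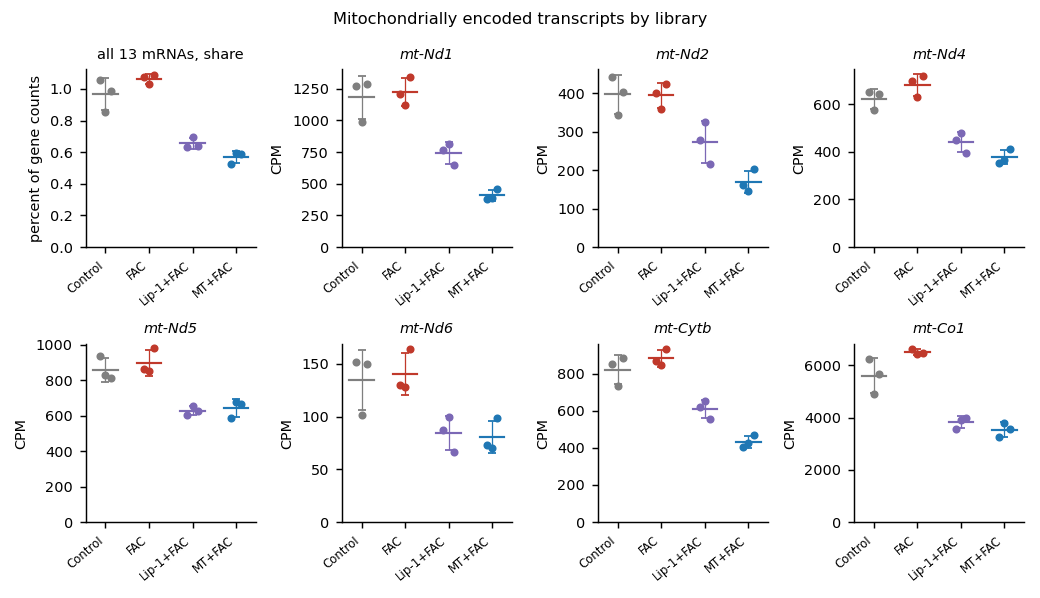
Share of the 13 mitochondrially encoded mRNAs in gene-assigned counts (percent, first panel) and level of 7 of them in CPM (other panels, axes from 0) in each library of the 4 groups. Points are libraries, bars means and whiskers the SD of 3 libraries, and MT+FAC libraries lie below all FAC and control libraries in each panel.

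Nuclear genes of oxidative phosphorylation that were called were mostly lower, except in complex II. In either direction, 38.9% were called in complex I, 50% in complex II and 66.7% in complex IV. Complexes III and V had 33.3% each, against 40.9% of all genes. These shares were not tested against each other or against all genes. Of complex I subunits, 13 of 36 were lower and 1 higher, beside 19.7% lower and 21.2% higher of all genes. Of complex IV subunits 8 of 12 were lower. Complex III had 3 of 9 lower and complex V 4 of 15 lower and 1 higher. Of 4 complex II subunits 2 were higher, 1 without FAC replicate 1 or 2 or any 1 MT+FAC library, and none lower. The 1 complex V call higher was lost without any 1 library. The counts of lower genes fell to 5 for complex I without FAC replicate 3 or MT+FAC replicate 2 and 7 without MT+FAC replicate 1, to 4 for complex IV without FAC replicate 3 or any 1 MT+FAC library and 5 without FAC replicate 1, and to 1 for complex III without FAC replicate 3 or MT+FAC replicate 2. Uqcrq, a small complex III subunit, had 217, 289.9 and 254 CPM in FAC and 145, 150.2 and 147.9 CPM in MT+FAC, a log2 change of -0.78 (SE 0.164, edgeR adjusted p = 0.00369). Ndufv3, of complex I, changed by -0.56 (SE 0.114) and Atp5e, of complex V, by -0.59 (SE 0.133). Cox8a, of complex IV, changed by -0.67 (SE 0.112) but by -0.15, without a call, with offsets for GC content and length. These transcripts are short, and genes in the lowest quartile of exonic length had a median log2 fold change of -0.20, against 0.04 to 0.05 in each higher quartile. With offsets for GC content and length the medians became -0.11 for complex I (from -0.32), -0.06 for complex III (from -0.35), -0.21 for complex IV (from -0.50) and -0.12 for complex V (from -0.29). The factors that transcribe, copy and translate mitochondrial DNA did not share the direction, with 1 of 25 lower, 2 without MT+FAC replicate 2, and 7 higher, the latter 4 without MT+FAC replicate 1. Tfb1m, which methylates mitochondrial ribosomal RNA, was low in level and changed by 1.15 (SE 0.253). Lonp1, the main matrix protease, had 430.3, 430.5 and 460.2 CPM in FAC and 274, 320.0 and 299 CPM in MT+FAC, a log2 change of -0.57 (SE 0.0585, edgeR adjusted p = 9.79e-07).

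Targets of NRF2, the factor that answers electrophiles and oxidants, were mostly higher with Mito-TEMPO. Of 44 tested, 25 were higher and 4 lower, with a median of 0.24. Gstm3, a glutathione transferase, had 238, 229.9 and 225 CPM in FAC and 953, 661 and 729 CPM in MT+FAC, a log2 change of 1.76 (SE 0.197, edgeR adjusted p = 1.02e-04). Nqo1, the quinone reductase, had 11.9, 12.7 and 12.1 CPM in FAC and 26.4, 27.0 and 25.8 CPM in MT+FAC, a log2 change of 1.11 (SE 0.114, edgeR adjusted p = 9.78e-07). Gstm4, another glutathione transferase, had 34.7, 32.1 and 35.1 CPM in FAC and 75.9, 66.8 and 64.4 CPM in MT+FAC, a log2 change of 1.03 (SE 0.0809, edgeR adjusted p = 5.71e-08). Slc7a11, the cystine importer that feeds glutathione synthesis, had 49.5, 50.5 and 55.5 CPM in FAC and 66.0, 71.8 and 80.1 CPM in MT+FAC, a log2 change of 0.49 (SE 0.0810, edgeR adjusted p = 1.37e-04). These genes were higher in every MT+FAC library than in any FAC library, as were 27.1% of all genes tested. Of genes called higher 97.8% did not overlap. The 4 members called lower were Hmox1, G6pdx, Fth1 and Gsta4. Hmox1, heme oxygenase 1, had 2595, 2580.0 and 2504 CPM in FAC and 1097, 1408 and 1275 CPM in MT+FAC, a log2 change of -1.02 (SE 0.0874, edgeR adjusted p = 3.24e-07), while control libraries held 341, 284 and 269.6 CPM. G6pdx, the first enzyme of the pentose phosphate pathway, changed by -0.97 (SE 0.132), and by -0.61 when the counts of both strands were summed. Gsta4, a transferase for lipid aldehydes, changed by -0.37 (SE 0.102), a call lost with offsets for GC content and length. Gclc, the catalytic subunit of glutathione synthesis and the highest of the list, was not called, with 8154 ± 109 CPM in FAC against 8411 ± 351 CPM in MT+FAC (SD, n = 3).

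The antioxidant response element core, TGACNNNGC, whose first letters also open the AP-1 site TGACTCA, was in 8 of the 25 windows of NRF2 targets called higher. That is 32%, against 15.0% of all 9869 windows. The window of Gsta3, a glutathione transferase that changed by 0.86 (SE 0.0613) and had the largest change among these 8 (named for that reason), is shown with the core in capitals (chromosome 1, 21240335 to 21240634, plus strand).
Gsta3: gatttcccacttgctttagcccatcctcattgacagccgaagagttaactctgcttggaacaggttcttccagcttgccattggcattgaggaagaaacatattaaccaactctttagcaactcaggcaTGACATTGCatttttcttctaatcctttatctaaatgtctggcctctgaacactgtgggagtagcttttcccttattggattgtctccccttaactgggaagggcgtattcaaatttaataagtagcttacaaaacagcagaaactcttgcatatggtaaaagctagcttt

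Among genes that act on lipid peroxides and ferroptosis, 5 of 18 were higher and 3 lower (5 without MT+FAC replicate 2), a share near that of all genes. Aifm2, the ubiquinone reductase FSP1 that protects membranes, had 45.6, 49.4 and 50.2 CPM in FAC and 64.7, 65.4 and 64.1 CPM in MT+FAC, a log2 change of 0.42 (SE 0.0641, edgeR adjusted p = 5.68e-05). Por, the cytochrome P450 reductase, had 1052, 1187 and 1025 CPM in FAC and 594, 708 and 627 CPM in MT+FAC, a log2 change of -0.76 (SE 0.0709, edgeR adjusted p = 3.37e-07). Dhcr7, which consumes 7-dehydrocholesterol, changed by 1.01 (SE 0.103). Gss, glutathione synthetase, had 224, 222 and 218 CPM in FAC and 440.4, 369.6 and 415 CPM in MT+FAC, a log2 change of 0.88 (SE 0.118, edgeR adjusted p = 9.23e-05). Chac1, which degrades glutathione, changed by -0.44 (SE 0.0877). Of 23 superoxide and peroxide enzymes, 7 were higher and 6 lower, beside 21.2% and 19.7% of all genes, with a median of 0.06. Sod1, the cytosolic superoxide dismutase, changed by -0.58 (SE 0.0982) and Prdx3, a mitochondrial peroxiredoxin, by 0.37 (SE 0.0621).

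Of 21 iron uptake, storage and export genes tested, 7 were higher and 7 lower, beside 21.2% and 19.7% of all genes, with a median of 0.01 that was below 0 in 8 of 16 alternatives. For uptake, Tfrc, the transferrin receptor, had 27.8, 25.9 and 20.2 CPM in FAC and 17.0, 17.0 and 19.1 CPM in MT+FAC, a log2 change of -0.48 (SE 0.119, edgeR adjusted p = 0.00382), and both groups lay below control, at 74.0, 65.2 and 59.6 CPM. Slc39a14, which imports iron not bound to transferrin, changed by -0.28 (SE 0.0693). For storage, Fth1 had 5552, 5138 and 5349 CPM in FAC and 3722, 3786 and 3928 CPM in MT+FAC, a log2 change of -0.49 (SE 0.0705, edgeR adjusted p = 3.28e-05). Ftl1, the ferritin light chain, was not called, at -0.46 (SE 0.265, edgeR adjusted p = 0.205), except in a fit of the compared libraries alone, and copies match 94.0% of its transcript. For export, Slc40a1, ferroportin, was not called either: its libraries held 1361, 1357 and 1214 CPM in FAC and 1329, 1304 and 1321 CPM in MT+FAC, a log2 change of 0.01 (SE 0.0532, edgeR adjusted p = 0.916). The groups overlapped, and MT+FAC was above control by 1.13 (SE 0.0539, edgeR adjusted p = 2.65e-10) while control held 603 ± 9.81 CPM (SD, n = 3). The oxidase that loads exported iron onto transferrin, Cp or ceruloplasmin, had 2142, 2106 and 1745 CPM in FAC and 4595, 4188 and 4713 CPM in MT+FAC, a log2 change of 1.17 (SE 0.0800, edgeR adjusted p = 1.90e-08). Steap2, a metalloreductase, changed by 0.88 (SE 0.115) and Aco1, the iron regulatory protein 1, by 0.41 (SE 0.0656). Fbxl5, which degrades iron regulatory protein 2, changed by 0.48 (SE 0.0648). Lcn2, which binds siderophores, changed by -0.64 (SE 0.0807) and Pcbp2, an iron chaperone, by -0.58 (SE 0.114). Tfr2, Pcbp1 and Slc11a2 changed by -0.24 (SE 0.0665), -0.20 (SE 0.0779) and 0.20 (SE 0.0662), calls that were lost in part when single libraries were left out. Lrp1, Ncoa4, Slc39a8, Ireb2 and Steap3 were not called and lay between -0.19 and 0.31. Of these, Ncoa4 was called lower in 7 of 16 alternatives and Lrp1 in 3.

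Hepcidin itself was lower. Of 22 genes of its pathway, 7 were lower and 2 higher, beside 19.7% and 21.2% of all genes. Their share called in either direction, 40.9%, is that of all genes tested. Hamp, hepcidin (ENSMUSG00000050440, chromosome 7, 30942368 to 30944032), had 24.5, 17.8 and 33.6 CPM in FAC and 6.72, 7.80 and 7.90 CPM in MT+FAC, a log2 change of -1.75 (SE 0.256, edgeR adjusted p = 3.00e-04). Control libraries held 46.1, 30.9 and 55.9 CPM and Lip-1+FAC libraries 5.75, 6.18 and 5.33 CPM, so that both pretreated groups lay below both others. Id1, a target of BMP signalling, had 4.79, 5.86 and 8.03 CPM in FAC and 2.50, 2.20 and 3.07 CPM in MT+FAC, a log2 change of -1.27 (SE 0.214, edgeR adjusted p = 1.49e-04). Bmp2, a ligand, was at a low level, with a change of -1.30 (SE 0.324). Hfe2, the BMP co-receptor hemojuvelin, was higher, with 10.1, 9.58 and 13.2 CPM in FAC and 27.8, 24.2 and 24.7 CPM in MT+FAC, a log2 change of 1.23 (SE 0.112, edgeR adjusted p = 2.45e-07), and Hfe, which binds transferrin receptors, changed by 0.49 (SE 0.0640). Neo1, which binds hemojuvelin, changed by -0.39 (SE 0.1004), and Acvr2a, an activin receptor, by -0.21 (SE 0.0754), a call lost in 5 of the 6 fits without 1 library. Id3 changed by -0.38 (SE 0.0844), and by -0.21 without a call with offsets for GC content and length. Atoh8, a transcription factor of the hepcidin pathway, was not called, with 11.03 ± 2.01 CPM in FAC against 10.4 ± 0.299 CPM in MT+FAC (SD, n = 3). The other 12 members not called, Acvr1, Bmpr1a, Bmpr2, Bmp6, Smad1, Smad4, Smad5, Smad7, Socs3, Stat3, Tmprss6 and Id2, lay between -0.39 and 0.12. Of these, Acvr1 was called lower in 3 of 16 alternatives and Bmpr1a in 2, and Id2 was called higher in 1.

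For heme, 10 of 21 genes were higher and 2 lower, beside 21.2% and 19.7% of all genes. Hp, haptoglobin, the plasma protein that binds hemoglobin, had 2584, 2534 and 2132 CPM in FAC and 5654, 4540.5 and 5359 CPM in MT+FAC, a log2 change of 1.10 (SE 0.105, edgeR adjusted p = 2.52e-06). Alas1, the rate-limiting enzyme of heme synthesis, had 341, 407 and 365 CPM in FAC and 595, 594 and 561 CPM in MT+FAC, a log2 change of 0.65 (SE 0.0592, edgeR adjusted p = 2.49e-07). Besides Hmox1, the member called lower was Bach1, a heme-sensing repressor of NRF2 targets, at -0.82 (SE 0.144). Among iron-sulfur cluster genes, 2 of 22 were higher (1 without FAC replicate 3 or MT+FAC replicate 1 or 2) and 3 lower, so that 22.7% were called against 40.9% of all genes.

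Most cholesterol synthesis genes were higher. Of 21 genes, 15 were higher and 2 lower (1 without FAC replicate 2 or MT+FAC replicate 3), with a median of 0.53. Mvd, which makes isopentenyl diphosphate, had 9.02, 12.5 and 11.9 CPM in FAC and 19.9, 20.4 and 21.3 CPM in MT+FAC, a log2 change of 0.88 (SE 0.118, edgeR adjusted p = 1.57e-05). Idi1, the isomerase of the next step, had 21.8, 21.1 and 26.0 CPM in FAC and 41.4, 37.9 and 52.4 CPM in MT+FAC, a log2 change of 0.94 (SE 0.143, edgeR adjusted p = 1.78e-04). All MT+FAC libraries lay above all FAC libraries in both genes, as in 27.1% of all genes tested. Among genes called higher 97.8% did not overlap. In Mvd the MT+FAC libraries also lay above all control libraries. Tm7sf2, a sterol reductase, changed by -0.31 (SE 0.0777), and Sqle, squalene epoxidase, was not called. The sterol regulatory element, TCACNCCAC, was in 1 of 13 windows of the genes called higher, 7.69%, against 1.12% of all windows. That 1 is Hmgcs1, the synthase that precedes HMG-CoA reductase, which changed by 0.76 (SE 0.0711) and is named because it holds the element (in capitals, chromosome 13, 119690101 to 119690400, plus strand).
Hmgcs1: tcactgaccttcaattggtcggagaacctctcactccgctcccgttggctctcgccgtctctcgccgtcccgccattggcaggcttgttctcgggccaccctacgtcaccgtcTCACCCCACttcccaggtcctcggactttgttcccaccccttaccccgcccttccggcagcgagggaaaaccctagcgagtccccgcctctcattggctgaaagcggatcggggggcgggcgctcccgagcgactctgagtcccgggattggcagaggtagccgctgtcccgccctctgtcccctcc

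Other lipid genes moved both ways. Of 23 fatty acid synthesis and desaturation genes, 8 were higher and 2 lower, beside 21.2% and 19.7% of all genes. In either direction 43.5% were called, near the 40.9% of all genes. Acss2, which makes cytosolic acetyl-CoA, had 31.1, 29.9 and 31.1 CPM in FAC and 59.4, 52.3 and 57.3 CPM in MT+FAC, a log2 change of 0.88 (SE 0.0789, edgeR adjusted p = 2.29e-07). Acaca, acetyl-CoA carboxylase, changed by 0.92 (SE 0.251), a call lost without FAC replicate 1 or 2, and by 0.59 without MT+FAC replicate 1, while a copy matches 64.3% of its transcript. The members called lower were the desaturases of polyunsaturated fatty acids. Fads2 had 365, 353 and 449 CPM in FAC and 189.5, 245 and 227 CPM in MT+FAC, a log2 change of -0.82 (SE 0.111, edgeR adjusted p = 8.75e-05), and Fads1 changed by -0.51 (SE 0.0683). Of 35 oxidation and ketogenesis genes, 17 were higher and 8 lower. Cpt1a, which admits fatty acids to mitochondria, had 55.3, 56.9 and 56.4 CPM in FAC and 99.7, 97.3 and 104 CPM in MT+FAC, a log2 change of 0.84 (SE 0.0669, edgeR adjusted p = 7.00e-08). Fabp1, the liver fatty acid binding protein, was lower with 51.9, 43.4 and 68.4 CPM in FAC and 22.8, 21.02 and 17.0 CPM in MT+FAC, a log2 change of -1.42 (SE 0.227, edgeR adjusted p = 7.31e-04). Lipid droplet genes divided: G0s2, an inhibitor of triglyceride lipase, changed by 1.49 (SE 0.209), and Cidec, a droplet fusion protein, by -0.83 (SE 0.0954).

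Lists of hepatocyte functions differed in direction. Of 16 genes of the periportal zone of the liver lobule, 8 were lower and 2 higher (1 without MT+FAC replicate 2), with a median of -0.54. Of 12 pericentral genes, 6 were lower and 3 higher, with a median of -0.36. Of 25 hepatocyte transcription factors, 7 were higher and 6 lower, beside 21.2% and 19.7% of all genes. Their median of 0.0069 changed sign in 4 of 16 alternatives. Of 19 bile acid genes, 10 were higher and 4 lower. Baat, which conjugates bile acids to amino acids, had 36.6, 32.7 and 35.8 CPM in FAC and 103, 87.5 and 99.7 CPM in MT+FAC, a log2 change of 1.47 (SE 0.0793, edgeR adjusted p = 1.64e-09). Abcb11, the bile salt export pump, had 14.7, 12.5 and 14.1 CPM in FAC and 38.9, 27.4 and 27.2 CPM in MT+FAC, a log2 change of 1.19 (SE 0.147, edgeR adjusted p = 1.54e-05). Nr1h4, the bile acid receptor FXR, changed by 0.91 (SE 0.0711), still below control, at -0.58 (SE 0.0693). Of 28 amino acid catabolism genes, 13 were higher and 8 lower. Hgd, of tyrosine breakdown, had 14.9, 14.4 and 13.7 CPM in FAC and 47.3, 37.9 and 41.7 CPM in MT+FAC, a log2 change of 1.56 (SE 0.105, edgeR adjusted p = 1.17e-08). Gnmt, which uses up S-adenosylmethionine, was lower, with 128, 128 and 127 CPM in FAC and 75.9, 83.2 and 77.8 CPM in MT+FAC, a log2 change of -0.69 (SE 0.0636, edgeR adjusted p = 2.84e-07).

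Of 39 drug-metabolising cytochrome P450 genes, 17 were higher and 9 lower. Cyp2b10, a target of the xenobiotic receptor CAR, had 727, 679 and 605 CPM in FAC and 1774, 1498 and 1611 CPM in MT+FAC, a log2 change of 1.28 (SE 0.0748, edgeR adjusted p = 3.12e-09). Cyp2e1, which oxidises ethanol and other small molecules, had 443, 388 and 518 CPM in FAC and 156, 176 and 145 CPM in MT+FAC, a log2 change of -1.49 (SE 0.129, edgeR adjusted p = 3.99e-06). Both were far apart between the groups but in opposite directions. Cyp1a1, a target of the aryl hydrocarbon receptor, was low in level and changed by 1.35 (SE 0.226), and its relative Cyp1a2 by -0.67 (SE 0.0815). Among 26 conjugation genes, 11 were higher and 7 lower, beside 21.2% and 19.7% of all genes. Of 18 organic ion transporters, 10 were higher and 4 lower, the latter 2 without FAC replicate 2 or MT+FAC replicate 3. Examples are Slc47a1, which exports organic cations, at 1.21 (SE 0.196), and Slc22a7, an anion transporter, at -1.66 (SE 0.347).

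Secreted proteins also moved both ways. Of 30 abundant plasma proteins, 18 were lower and 7 higher, with a median of -0.32 that was -0.17 with offsets for GC content and length. Apoa2, an apolipoprotein of HDL, had 1128, 952 and 1391 CPM in FAC and 549, 549.6 and 549 CPM in MT+FAC, a log2 change of -1.08 (SE 0.166, edgeR adjusted p = 5.90e-04), and changed by -0.67 with those offsets. Angptl4, which inhibits lipoprotein lipase, rose by 0.63 (SE 0.0630). Of 24 acute phase and metal-binding proteins, 12 were lower and 8 higher. Mt1, metallothionein 1, had 3329, 3577 and 3545 CPM in FAC and 1257, 1369 and 1334 CPM in MT+FAC, a log2 change of -1.40 (SE 0.155, edgeR adjusted p = 5.39e-05). Saa2, a serum amyloid A protein, had 597, 518 and 807 CPM in FAC and 206, 252 and 225 CPM in MT+FAC, a log2 change of -1.49 (SE 0.162, edgeR adjusted p = 5.48e-05), but Saa1 matches the whole of its transcript at 96.7% identity. Of 24 complement genes, 11 were higher, 6 or 7 without MT+FAC replicate 1 or 2, and 3 lower. C6, of the membrane attack complex, changed by 1.16 (SE 0.0949). In coagulation, Pros1, the anticoagulant protein S, changed by 1.17 (SE 0.0841) and F3, tissue factor, by -0.77 (SE 0.145).

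Interferon-stimulated genes, which encode antiviral proteins, were higher or not called. Of 29 tested, 16 were higher and none was lower, with a median of 0.31. Ddx58, the RNA sensor RIG-I, had 32.2, 30.0 and 29.0 CPM in FAC and 63.4, 61.1 and 48.6 CPM in MT+FAC, a log2 change of 0.93 (SE 0.111, edgeR adjusted p = 7.34e-06). Ifit1, which binds foreign RNA, had 11.03, 11.5 and 9.49 CPM in FAC and 20.5, 23.0 and 19.4 CPM in MT+FAC, a log2 change of 0.97 (SE 0.173, edgeR adjusted p = 4.43e-04). Psmb9, an immunoproteasome subunit, changed by 0.95 (SE 0.160). Their control levels were 57.8 ± 2.83 CPM for Ddx58 and 19.8 ± 2.99 CPM for Ifit1 (SD, n = 3), and their ranges overlap those of MT+FAC. The core of the interferon-stimulated response element (TTTC, any 2 bases, TTTC) was in 8 of the 14 windows of the genes called higher, 57.1%, against 2.97% of all 9869 windows. Members that were not called were not counted apart, so this share describes the list. Gbp3, a guanylate-binding protein, had 7.27, 8.71 and 6.98 CPM in FAC and 17.8, 14.9 and 12.5 CPM in MT+FAC, a log2 change of 0.97 (SE 0.160, edgeR adjusted p = 1.33e-04). Its window holds 2 overlapping matches, in capitals (chromosome 3, 142559794 to 142560093, plus strand).
Gbp3: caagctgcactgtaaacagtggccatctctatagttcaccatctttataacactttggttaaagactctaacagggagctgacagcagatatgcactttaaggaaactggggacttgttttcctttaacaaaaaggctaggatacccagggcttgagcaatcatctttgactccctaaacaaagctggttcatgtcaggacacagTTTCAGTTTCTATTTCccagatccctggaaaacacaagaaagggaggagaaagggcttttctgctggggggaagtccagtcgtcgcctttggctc

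Of 30 integrated stress response genes, which follow phosphorylation of eIF2-alpha, 16 were lower and 7 higher. Ppp1r15a, which reverses that phosphorylation, had 181, 177 and 162 CPM in FAC and 94.5, 97.3 and 93.4 CPM in MT+FAC, a log2 change of -0.87 (SE 0.0699, edgeR adjusted p = 7.56e-08). Phgdh, the first enzyme of serine synthesis, was higher, by 0.64 (SE 0.0711), although copies match 84.9% of its transcript. Of 18 cytosolic heat shock genes, 8 were lower and 2 higher, the latter 1 without FAC replicate 1 or 3 or MT+FAC replicate 1 or 2. Hspb1, a small heat shock protein, had 228, 272 and 242 CPM in FAC and 96.0, 123 and 114 CPM in MT+FAC, a log2 change of -1.16 (SE 0.104, edgeR adjusted p = 1.33e-06), and changed by -0.72 with offsets for GC content and length. An annotated copy matches 51.3% of the Hspb1 transcript at 99.8% identity. Hspa1b, an inducible HSP70, changed by -1.48 (SE 0.166), but Hspa1a matches 78.5% of its transcript. Of endoplasmic reticulum chaperone and unfolded protein response genes, 5 of 24 were higher, 3 without FAC replicate 1 or 2 or MT+FAC replicate 1 or 2, and 3 lower, so that 33.3% were called against 40.9% of all genes. Of 32 proteasome subunits 5 were higher and 3 lower, the latter 1 without FAC replicate 3 or any 1 MT+FAC library. The share of proteasome subunits called, 25%, is below that of all genes, and was not tested against it.

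Lysosome and autophagy genes were lower in 19 of 44 cases, 12 without MT+FAC replicate 3, and higher in 4. Ctsb, the lysosomal protease cathepsin B, had 2316, 2154 and 2464 CPM in FAC and 1652, 1665 and 1609.9 CPM in MT+FAC, a log2 change of -0.49 (SE 0.0596, edgeR adjusted p = 4.99e-06). Map1lc3b, which coats autophagosomes, was higher, by 0.34 (SE 0.0600). Among apoptosis regulators, Bcl2l1, the survival protein BCL-XL, had 473, 476 and 440.3 CPM in FAC and 224, 238 and 232 CPM in MT+FAC, a log2 change of -1.002 (SE 0.0629, edgeR adjusted p = 5.09e-09), and Bbc3, the killer protein PUMA, changed by -1.13 (SE 0.180). Fas, the death receptor, was higher, by 0.77 (SE 0.123). Of 21 circadian clock genes, 12 were lower and 2 higher, the latter 1 without FAC replicate 1 or 3 or MT+FAC replicate 1 or 2, and 66.7% were called against 40.9% of all genes. Among those lower were the repressors Per1, at -1.15 (SE 0.134), and Cry1, at -0.97 (SE 0.0810). Hlf, a clock output factor, was higher, by 0.99 (SE 0.157).

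**Figure D5:**
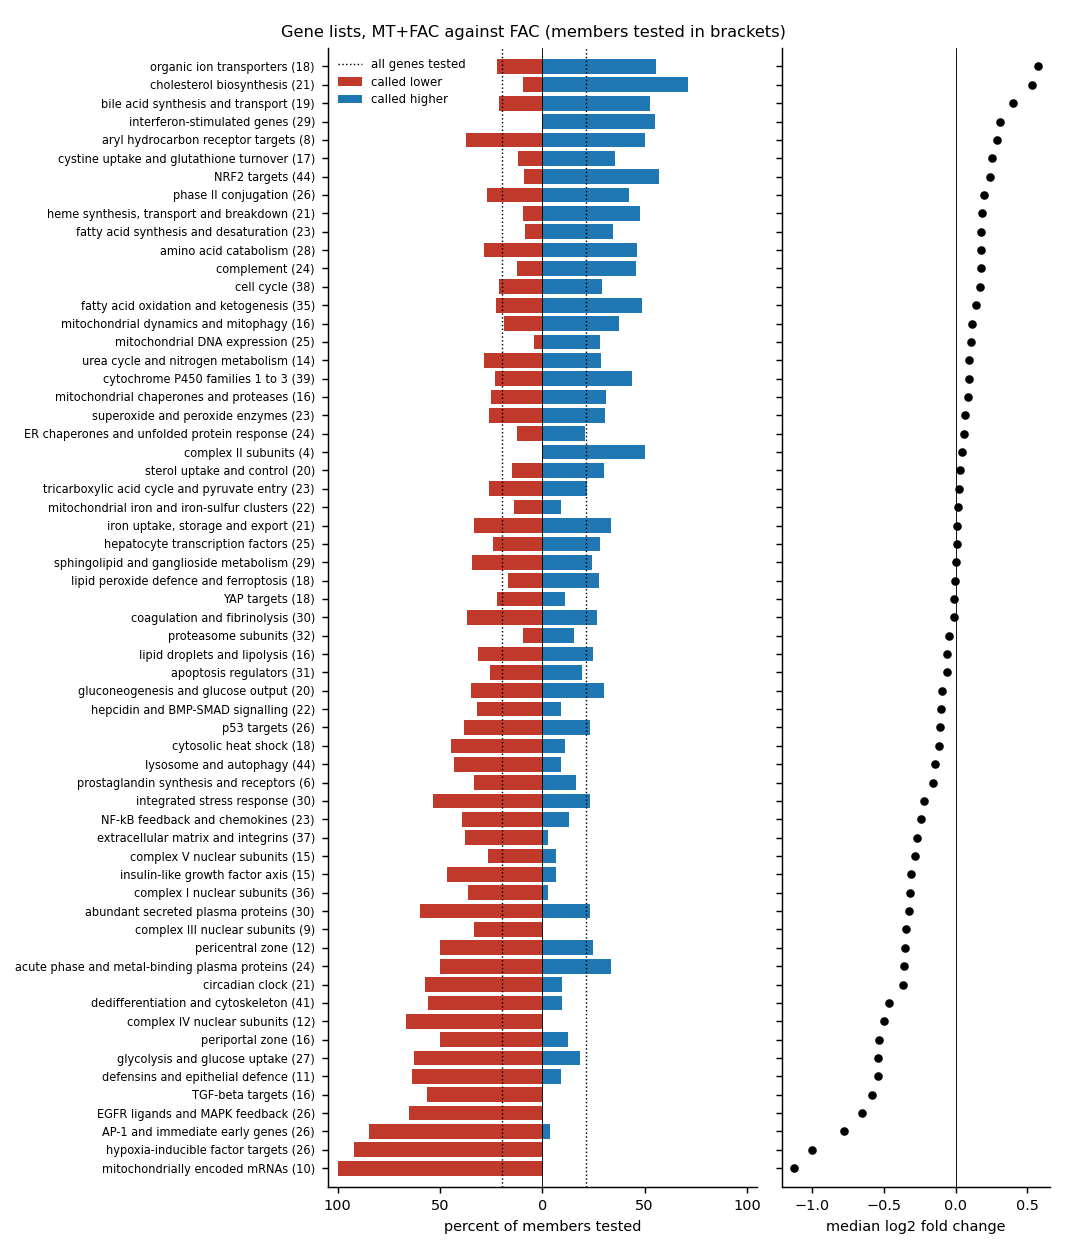
Share of tested members called higher (blue, right) or lower (red, left) in MT+FAC against FAC for 61 gene lists, with the shares of all genes tested (21.2% and 19.7%) as dotted lines, and the median log2 fold change of each list (right panel). Lists are ordered by that median, from -1.12 for the mitochondrially encoded mRNAs to 0.58 for the organic ion transporters. The mitochondrially encoded median is -0.90 over the 7 members with a mean CPM of at least 5.

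The lists whose share called was at or below the 40.9% of all genes were those of complexes I, III and V, mitochondrial DNA expression, mitochondrial ribosomal RNAs, iron-sulfur clusters, hepcidin signalling, endoplasmic reticulum chaperones, matrix, YAP targets and proteasome subunits. These shares pool both directions, and in several lists, such as complexes I, III and V and matrix, most calls were lower.

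Markers were checked for the cell types a hepatocyte preparation can hold. All 16 hepatocyte markers were expressed. Of these, 11 were lower and 2 higher, while their summed level was 55646 to 58188 CPM in FAC and 63075 to 63939 CPM in MT+FAC, a sum that is mostly Trf. Of 13 Kupffer cell and macrophage markers, 11 were tested, 1 was lower and 2 were higher, with sums of 296 to 330.2 CPM in FAC and 149.5 to 183 CPM in MT+FAC. Nearly all of that sum is Cd68, a lysosomal protein named after its values were seen, at 296, 279.5 and 311 CPM in FAC and 135, 164 and 135 CPM in MT+FAC, whereas Timd4 and Ptprc were at or near 0. Stellate cell and fibroblast markers summed to 31.1 to 39.7 CPM in FAC and 17.5 to 22.6 CPM in MT+FAC, with 2 of 8 tested lower and Lrat and Lum at or near 0. Those 2 were Reln and Acta2, named after their values were seen, whose fall makes up the fall in that sum, while the other 6 were not called, with log2 changes of 0.04 to 1.16. Endothelial markers summed to 42.8 to 44.2 and 35.6 to 39.5 CPM, with 1 higher and 1 lower of 10 tested. Bile duct markers had 4 lower (Sox9, Krt19, Krt7 and Epcam) and 1 higher (Spp1) of 6 tested and sums of 112 to 143.5 and 123 to 163 CPM. No lymphocyte or neutrophil marker had enough counts to be tested, and of 6 erythroid markers only Alas2 had. The part of such cells in the results was not tested.

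Pretreated cells were next set against control, to show where they stood. MT+FAC against control called 2684 genes, 19.8% of those tested, with 1314 (9.71%) higher and 1370 (10.1%) lower. FAC against control called 4960 (36.6%), 2373 (17.5%) higher and 2587 (19.1%) lower. These comparisons share libraries with each other and with the main one, so their values are given side by side and no overlap is drawn from them. Steap4 was not called against control in MT+FAC, at 0.03 (SE 0.101), while its change in FAC against control was -1.90 (SE 0.109). Hmox1 stayed above control in MT+FAC, by 2.08 (SE 0.0905, edgeR adjusted p = 4.83e-10), against 3.102 (SE 0.0940) in FAC. Slc7a11 was above control by 2.44 (SE 0.0898, edgeR adjusted p = 4.35e-12), against 1.96 (SE 0.0893) in FAC, so that its level was highest in the pretreated groups. Fth1 was not called against control, at 0.00 (SE 0.0704). Tfrc was lower than in control cells, at -1.91 (SE 0.119) in MT+FAC and -1.42 (SE 0.116) in FAC. Of the 26 hypoxia-linked genes, FAC had 15 above control and 1 below, and MT+FAC had none above and 17 below, with Ddit4 at -1.16 (SE 0.138). Of the 29 interferon-stimulated genes, 21 were below control in FAC and 6 in MT+FAC, and of the 21 cholesterol genes 15 and 2. Below control in MT+FAC were also 9 of 10 mitochondrially encoded mRNAs, with mt-Nd1 at -1.53 (SE 0.120). Atoh8, not called between MT+FAC and FAC, was lower than in control cells, at -2.09 (SE 0.123) in MT+FAC and -2.02 (SE 0.122) in FAC.

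Finally, the difference between the scavengers was tested directly. MT+FAC against Lip-1+FAC called 182 genes, 1.34% of those tested, with 63 (0.465%) higher and 119 (0.879%) lower in MT+FAC. This count was 465 by DESeq2, 312 in a fit of these 6 libraries alone, 477 without a filter on low counts, and between 74 and 156 when a library was left out, with 74 and 86 without MT+FAC replicates 3 and 2 and 76 and 77 without Lip-1+FAC replicates 1 and 2. The share called higher moved from 34.6% to 46.7% with upper-quartile scaling, to 51.3% without MT+FAC replicate 1 and to 17.1% without Lip-1+FAC replicate 1. A gene that was not called here is not thereby shown to be equal in both groups. Of the 10 mitochondrially encoded mRNAs 2 were lower with Mito-TEMPO, mt-Nd1 and mt-Cytb, and 8 were not called. mt-Nd1 had 765, 815 and 648 CPM in Lip-1+FAC and 383, 386 and 458 CPM in MT+FAC, a log2 change of -0.86 (SE 0.119, edgeR adjusted p = 0.00329). Idi1 had 79.98, 77.7 and 62.1 CPM and 41.4, 37.9 and 52.4 CPM, a change of -0.74 (SE 0.139, edgeR adjusted p = 0.0191). Insig1, a sterol-sensing protein of the endoplasmic reticulum, had 232, 232 and 251 CPM and 148.9, 131 and 139 CPM, a change of -0.77 (SE 0.0661, edgeR adjusted p = 1.23e-05). Scd2 differed by -0.79 (SE 0.0970, edgeR adjusted p = 3.13e-04), Stk10, a protein kinase, by -0.80 (SE 0.169, edgeR adjusted p = 0.0246) and Egr1 by -0.68 (SE 0.121, edgeR adjusted p = 0.0106). Of the cholesterol genes 10 of 21 were lower in MT+FAC than in Lip-1+FAC, and of the NRF2 targets 14 of 44, with none higher in either list. Slc7a11 differed by -0.60 (SE 0.0803, edgeR adjusted p = 5.79e-04).

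The 63 genes higher with Mito-TEMPO than with liproxstatin-1 included Atoh8. It had 5.28, 5.22 and 6.39 CPM in Lip-1+FAC and 10.8, 10.2 and 10.3 CPM in MT+FAC, a change of 0.90 (SE 0.134, edgeR adjusted p = 0.00149). Cyp2s1, a cytochrome P450, had 2.29, 3.97 and 5.03 CPM and 6.31, 10.1 and 7.34 CPM, a change of 1.08 (SE 0.243, edgeR adjusted p = 0.0472). Emp1, a membrane protein, had 2.69, 3.15 and 2.83 CPM and 6.501, 10.3 and 12.7 CPM, a change of 1.75 (SE 0.208, edgeR adjusted p = 3.13e-04). The groups did not overlap in these genes, which the rule for naming the largest differences required. Hivep3, a zinc finger factor, differed by 0.99 (SE 0.140, edgeR adjusted p = 9.54e-04), Rgs2, a regulator of G protein signalling, by 0.83 (SE 0.150, edgeR adjusted p = 0.0106), and AA986860 by 0.87 (SE 0.164, edgeR adjusted p = 0.0120). Slc2a1 was among the hypoxia-linked genes higher in MT+FAC than in Lip-1+FAC, at 0.58 (SE 0.117, edgeR adjusted p = 0.0336), and 2 of 26 were. Hamp, Slc40a1 and Hmox1 were not called between the scavengers, at 0.37 (SE 0.280, edgeR adjusted p = 0.652), -0.17 (SE 0.0532, edgeR adjusted p = 0.131) and -0.23 (SE 0.0867, edgeR adjusted p = 0.237).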

How the data were processed

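Messenger RNA of primary mouse hepatocytes was measured in 12 libraries. Per the labels' protocols, cDNA was made with SMART-Seq v4, libraries with Nextera XT, and paired-end reads on a NovaSeq; per the submitters' processing notes, STAR and GRCm38 were used. The authors deposited raw read counts per gene, and the unstranded counts were used, since the kit keeps no strand. Rows of unassigned reads (18.8% to 24.2% of listed reads) were left out. Aligner version and annotation are not given in the sources used here; names come from GENCODE M21, which matched 55227 of 55487 identifiers.

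Genes were kept by filterByExpr, scaled by TMM and tested in edgeR 4.0.16 by its quasi-likelihood F test (R 4.3.3), with 4 group means over all 12 libraries and Benjamini-Hochberg adjustment over 13535 genes. SE is the fold change divided by the root of F. On simulated data of 13164 genes, with 100 genes changed at each size, 58% of genes changed by 0.5 and 81% changed by 1 (log2) were recovered. Of the calls there, 2.80% were false. Far fewer genes were changed there than were called in the data, so these rates need not hold for the data. Alternatives were other scalings and filters, the replicate number as a block, offsets for GC content and length, summed stranded counts, thinned libraries, single libraries left out and DESeq2 1.42.0.

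Named genes are the 12 largest changes each way (above), the 6 most abundant called each way, up to 4 each way and the most abundant per list, all iron, hepcidin and mitochondrially encoded mRNA genes, 3 of other biotypes each way, and 6 each way against Lip-1+FAC. Copies were sought with blastn 2.17.0+ at 95% identity. Members and lists were chosen with earlier results of these data known. Lists are described, not tested. Some items the rule names are not reported here.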

Additional observations from a re-analysis of the deposited data

How the results depend on the processing

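The main count of 5541 calls lay between 4683 and 6035 under other scalings, filters, tests and counting columns, and between 4488 and 5112 when a library was left out. Genes called with at least a 2-fold change numbered 338, not 1007, when a mean CPM of at least 5 was required. That fit tested 9138 genes, not 13535, and called 4683, not 5541. Most of the 1007 therefore lay in genes under that level. Their number was 794 to 1012 when a library was left out. MT+FAC against control gave 1794 to 2830 calls and FAC against control 4048 to 4803 when a library was left out. MT+FAC against Lip-1+FAC gave 477 calls without a filter on low counts, 312 with only the compared libraries and 465 by DESeq2, against 182, and 74 to 156 when a library was left out, with 86 without MT+FAC replicate 2, 74 without MT+FAC replicate 3, 76 and 77 without Lip-1+FAC replicates 1 and 2. The cause was not tested.

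Replicate numbers were not treated as pairs. Deviations from the group means of same-numbered FAC and MT+FAC libraries correlated at 0.112, 0.0146 and 0.0719, and those of other-numbered libraries at -0.101 to 0.0318. Each FAC replicate correlated best with the MT+FAC replicate of its own number, but MT+FAC replicate 2 correlated best with FAC replicate 3. These small values do not settle whether the libraries were paired. With the replicate number as a block, 5488 genes were called in MT+FAC against FAC, 1008 of them changed at least 2-fold, 2553 in MT+FAC against control, 193 against Lip-1+FAC and 4863 in FAC against control.

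Of 411 named genes that were called, 330 kept the call under every alternative run and 81 lost it at least once. With offsets for GC content and length, the sign turned for Cox4i1 (0.13), Clpp (0.0605), Fis1 (0.0258) and Psmb5 (0.0675), and Bst2, not called in the reported fit, was called at 0.27. Of 62 list medians, 12 changed sign under at least 1 alternative, 9 of them within 0.1 of 0 as reported, such as the iron list (0.0083, down to -0.0669) and the endoplasmic reticulum chaperone list (0.0596, down to -0.0245). The others were those of the cell cycle list (-0.14) and the aryl hydrocarbon receptor list (-0.0213) at a mean CPM of at least 5, and the prostaglandin list (0.00097 without FAC replicate 3, the other libraries left out giving down to -0.254). The mitochondrially encoded share differed by -0.513 to -0.362 percentage points over its alternatives. Genes changed by 0.5 on the log2 scale were recovered in 58% of simulated cases, so small changes can be missed. Only 100 genes were changed at each size there, and this rate need not hold for these data. Reads without molecular identifiers are not independent molecules.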

Other observations

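Processed pseudogenes were more often lower than higher in MT+FAC. Of 557 processed pseudogenes tested, 97 were lower and 7 higher, whereas of 11876 protein-coding genes 2434 were lower and 2773 higher. Reads of a pseudogene and of its parent gene can be hard to separate. Among 263 long intergenic RNAs, 39 were lower and 37 higher. The largest rises of other biotypes were Gm19950 at 1.69 (SE 0.234), Gm46430 at 1.33 (SE 0.163) and Gm38416 at 1.25 (SE 0.163). The largest falls were Gm29216 at -1.90 (SE 0.548) and Gm13340 at -1.88 (SE 0.583), of which Gm13340 matches mt-Co1 and Gm29216 matches Gm13340, and both lost their calls without some single libraries, and Mir6236 at -1.51 (SE 0.397), which was -0.51 without a call with offsets for GC content and length.

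Neu3, a sialidase of the plasma membrane, had 1.90, 2.47 and 2.02 CPM in FAC and 7.19, 6.64 and 7.30 CPM in MT+FAC, a log2 change of 1.70 (SE 0.161, edgeR adjusted p = 4.00e-07), with control at 18.3 ± 2.06 CPM (SD, n = 3). Sgms2, a sphingomyelin synthase, changed by -0.85 (SE 0.0807), Ugcg, which makes glucosylceramide, by -0.89 (SE 0.0968) and B4galt6, a galactosyltransferase, by -1.27 (SE 0.334). Of 29 sphingolipid and ganglioside genes, 7 were higher and 10 lower, beside 21.2% and 19.7% of all genes, and the list's median of 0.0043 changed sign in 7 of 16 alternatives.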
